A study of Mus musculus with 6 samples.

Results

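The 9 genes described here are 8 SMAD genes (Smad1, Smad2, Smad3, Smad4, Smad5, Smad6, Smad7 and Smad9) and Cdc6. Smad1, Smad5 and Cdc6 are reported targets of miR-675, the microRNA made from the H19 transcript, and the other 6 SMADs set them in context. The genes were picked by symbol under a rule that uses no values, though earlier results of these data were known. Each has 1 probe set under its own symbol in the platform annotation. They are 9 of 21559 units fitted, a unit being the probe set that stands for a gene, or a probe set listed under several genes.

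The study used 6 Affymetrix whole-transcript arrays, each with RNA of wild-type C2C12 cells, an established mouse myoblast line. All cells had been moved at about 90% density from growth medium with 10% fetal bovine serum to differentiation medium with 2% horse serum. At day 1 of differentiation a control siRNA (siCon) was transfected in triplicate, as was an siRNA against mouse H19 (simH19), and RNA was taken 40 h later. The labels name a single H19 siRNA and do not say that the triplicates were independent cultures, and p-values then reflect only how these samples vary, which may be technical.

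SMAD proteins carry signals of the TGF-beta family from the membrane to the nucleus. Receptors for bone morphogenetic proteins (BMPs) phosphorylate SMAD1, SMAD5 and SMAD9, and receptors for TGF-beta and activin phosphorylate SMAD2 and SMAD3. Each phosphorylated SMAD pairs with SMAD4, while SMAD6 and SMAD7 inhibit signalling. In C2C12 cells BMPs are known to block myotube formation and turn the cells towards bone-forming cells. CDC6 loads the replicative helicase onto origins of replication, a step that cells stop once they leave the cell cycle to differentiate. H19 hosts the hairpin of miR-675, and microRNAs bind messenger RNAs mainly through a seed near their own 5′ end.

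The sequences of miR-675 are shown because Smad1, Smad5 and Cdc6 were chosen as its reported targets. These sequences come from RefSeq on GRCm38.p6 and lie on the minus strand of chromosome 7. The hairpin spans 142577064 to 142577147, inside the H19 gene at 142575530 to 142578146. The 5p arm lies at 142577112 to 142577133 and the 3p arm at 142577078 to 142577099. Capitals mark the seed, bases 2 to 8, in the mature arms, and the mature arms in the hairpin.
mmu-miR-675-5p: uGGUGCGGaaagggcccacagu
mmu-miR-675-3p: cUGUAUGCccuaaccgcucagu
Mir675 hairpin: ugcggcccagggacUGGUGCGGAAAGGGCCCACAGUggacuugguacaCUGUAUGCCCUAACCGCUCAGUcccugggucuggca
The arms do not share a seed, so they would pair with different letters in a messenger RNA. The 5p seed pairs with CCGCACC and holds 6 G or C bases of 7, and the 3p seed pairs with GCAUACA and holds 3 of 7. Among 1679 mature mouse microRNA names in the table, 0 others carry either seed. Target transcripts were not searched for these letters, and mature miR-675 and protein levels were not analysed here.

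H19 depletion was read from probe set 10569341, annotated with Mir675 and Supt6, since the annotation lists none under the symbol H19. It read 12.21, 12.23 and 12.27 on the log2 scale with control siRNA and 10.38, 10.28 and 10.37 with H19 siRNA. Every H19 siRNA array lay below every control array. The probe set fell to 26.9% of the control level, with a limma adjusted p of 1.80e-05. It does not tell whether mature miR-675 fell too.

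None of the 9 genes passed the threshold between H19 siRNA and control siRNA (0 of 9, adjusted p under 0.05 in limma after Benjamini-Hochberg over all units), against 0.199% of all units. At an unadjusted limma p under 0.05 there were 2 of 9, Cdc6 and Smad9, both higher with H19 siRNA, against 10.9% of all units (6.61% higher and 4.25% lower). Groups did not overlap for 3 of 9, namely Smad3, Smad4 and Smad9, each higher with H19 siRNA, against 17.6% of all units (10.5% higher). The differences of the 9 genes were positive for 5 and negative for 4, and their median was 0.025 (log2) beside 0.014 for all units. Of all units 57.98% had a positive difference, the share to set beside each count of signs here and in the lists. The median size of the difference was 0.036 for the 9 genes and 0.048 for all units. The smallest difference called for any unit in this fit was 0.26. With 3 arrays per group the smallest p of an exact permutation test is 0.1 (two-sided).

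**Figure D1:**
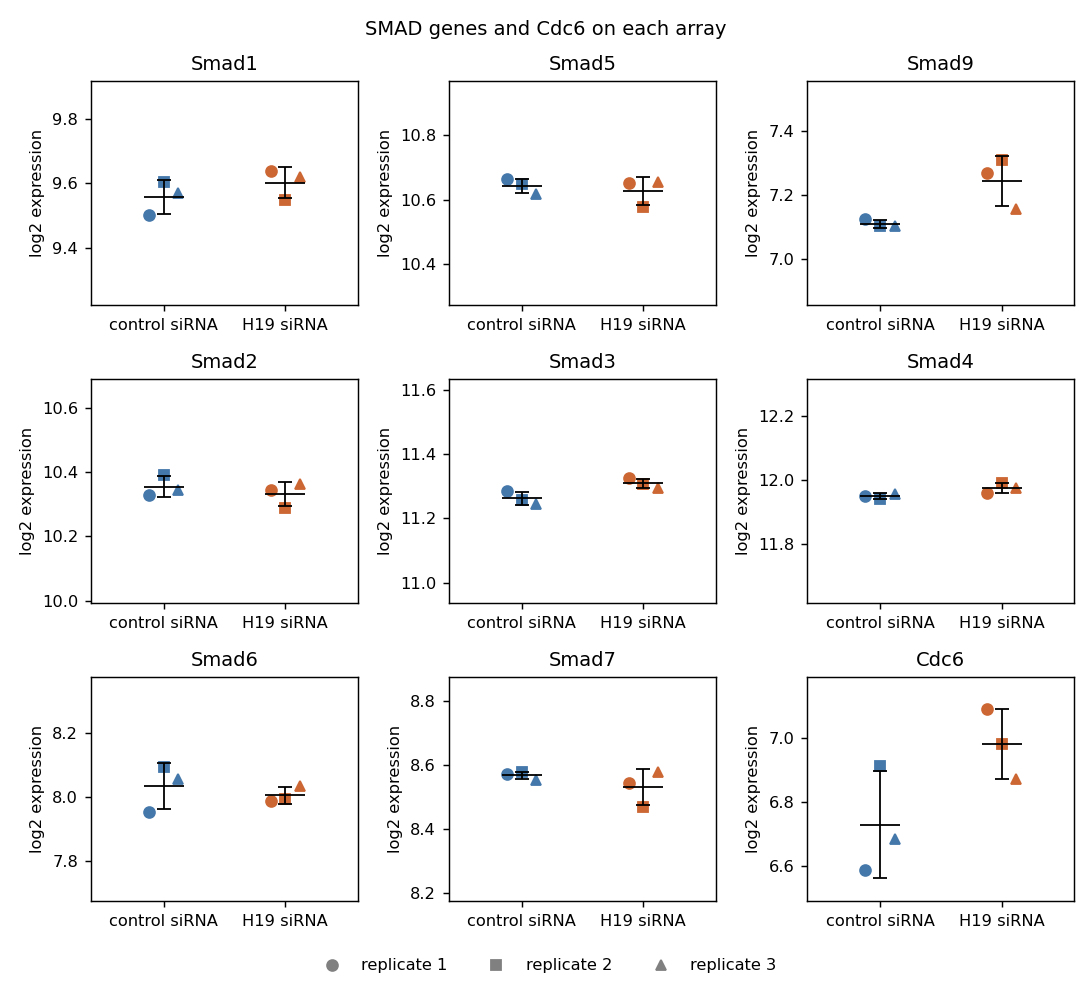
Log2 expression of the 8 SMAD genes and Cdc6 on each of the 6 arrays, control siRNA in blue and H19 siRNA in orange, with marker shape for the replicate number and black lines for mean ± SD (n = 3). Every panel spans the same range of log2 units. The widest spread between replicates is in Cdc6, where the groups overlap by 1 pair of arrays, and Smad9 is the SMAD with the widest gap between group means.

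Smad1, a BMP-activated SMAD, did not differ beyond the spread between arrays. Its log2 expression was 9.50, 9.60 and 9.57 with control siRNA and 9.64, 9.55 and 9.62 with H19 siRNA. The groups overlapped, with H19 siRNA replicate 2 below 2 of the control arrays. The difference, H19 siRNA minus control siRNA, was 0.044 (SE 0.044, limma adjusted p = 0.767). As a fold this is 1.03 with a 95% interval from 0.959 to 1.11, so an increase above 1.11-fold in the RNA of this reported target lay outside the interval. Without control siRNA replicate 1 the difference was 0.015 and without H19 siRNA replicate 2 it was 0.072 (limma adjusted p = 0.955 and 0.572), and leaving out any other array gave values between these.

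Smad5, also BMP-activated and a reported target, read 10.66, 10.65 and 10.62 with control siRNA and 10.65, 10.58 and 10.65 with H19 siRNA. The groups overlapped, and H19 siRNA replicate 2 was the lowest of the 6 arrays. The difference was -0.015 (SE 0.037, limma adjusted p = 0.910), or 0.989-fold with a 95% interval from 0.930 to 1.05. The intervals of Smad1 and Smad5 both include no change, which does not show that their RNA was unchanged.

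Smad9, the remaining BMP-activated SMAD (also called Smad8), read higher on every H19 siRNA array. Its values were 7.12, 7.10 and 7.10 with control siRNA and 7.27, 7.31 and 7.16 with H19 siRNA. The control arrays lay close together (SD 0.012), and the H19 siRNA arrays spread more widely (SD 0.078). The difference was 0.13 (SE 0.046), or 1.10-fold with a 95% interval from 1.02 to 1.18, an unadjusted limma p of 0.0231 and an adjusted p of 0.365. Smad9 was not chosen as a miR-675 target, and whether its difference is unlike those of Smad1 and Smad5 was not tested.

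The TGF-beta and activin branch showed differences within 0.05. Smad2 read 10.33, 10.39 and 10.34 with control siRNA and 10.35, 10.29 and 10.36 with H19 siRNA, with overlapping groups. Its difference was -0.023 (95% interval -0.11 to 0.067, limma adjusted p = 0.867). Smad3 read 11.286, 11.257 and 11.245 against 11.325, 11.308 and 11.295, so its groups did not overlap, with the closest arrays 0.0090 apart. Its difference was 0.047 (95% interval -0.030 to 0.12, limma adjusted p = 0.652).

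Smad4, the partner shared by both branches, had the tightest control replicates of the 9 genes. It read 11.952, 11.942 and 11.958 with control siRNA and 11.960, 11.990 and 11.977 with H19 siRNA. The groups did not overlap, but the closest arrays were 0.0019 apart. The difference was 0.025 (95% interval -0.049 to 0.099, limma adjusted p = 0.815), or 1.02-fold.

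The inhibitory SMADs, which are themselves induced by BMP and TGF-beta signals, read slightly lower on average. Smad6 read 7.95, 8.10 and 8.06 with control siRNA and 7.99, 7.99 and 8.04 with H19 siRNA. All 3 H19 siRNA arrays lay inside the range of the control arrays, and the difference was -0.030 (95% interval -0.14 to 0.079, limma adjusted p = 0.855). Smad7 read 8.57, 8.58 and 8.55 against 8.54, 8.47 and 8.58. Its groups overlapped, with H19 siRNA replicate 2 lowest, and the difference was -0.036 (95% interval -0.13 to 0.057, limma adjusted p = 0.784).

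H19 siRNA replicate 2 gave the lowest reading of Smad2, Smad5 and Smad7 and the highest of Smad4 and Smad9. This array also had the lowest mean Pearson correlation with the others over all rows, 0.9962, with all 15 pairs between 0.9958 and 0.9975. Without it Smad5 differed by 0.010, Smad2 by -0.0011, Smad7 by -0.0058, Smad4 by 0.018 and Smad9 by 0.10.

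**Figure D2:**
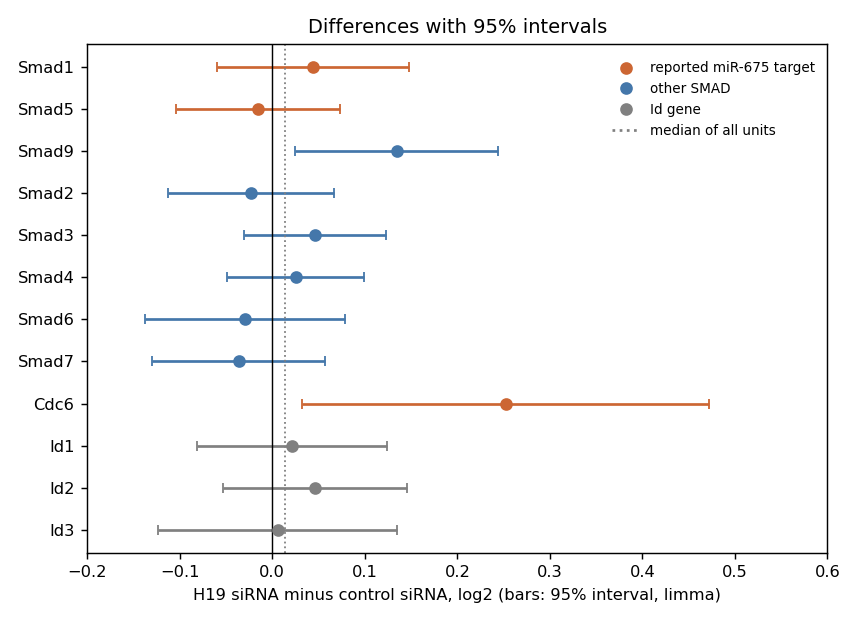
Difference in log2 expression, H19 siRNA minus control siRNA, for the 9 genes and for the BMP response genes Id1, Id2 and Id3, with 95% intervals from limma (3 arrays per group) and the median of all units as a dotted line. The intervals of Cdc6 (0.032 to 0.47) and Smad9 (0.025 to 0.24) lie above 0 before correction for the number of units tested, and the other 10 include 0.

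Smad6 is shown with its promoter because it is a textbook feedback target of BMP signalling and its start site holds the palindrome GTCTAGAC, to which SMAD proteins are known to bind. RefSeq promoters on GRCm38.p6, 250 bases before to 50 after a start, were found for 6 of 9 members (Smad1, Smad3, Smad5, Smad6, Smad9 and Cdc6). They were searched on both strands for GTCTAGAC, for GGCGCC, a GC-rich element described for BMP SMADs, and for the E2F letters TTTCCCGC and TTTGGCGC. GTCTAGAC was present in 0.213% of 32851 promoters of this length, and among the members only in Smad6. GGCGCC was present in 11.9% and, among the members, in Smad5 and Smad9. The Smad5 match is the same site in overlapping windows, and another Smad5 promoter lacks it. GGCGCC holds only G and C, and the members' 8 promoters hold 63.0% to 73.7% G or C, against a median of 52.7% for all. The Smad6 window, chr9:64022056-64022309 on the minus strand, runs from 250 bases before the start to the end of the palindrome, in capitals, which begins 4 bases before the start and runs across it. The tabulated start lies within the RefSeq gene span, which on this strand begins at 64022085.
Smad6 promoter: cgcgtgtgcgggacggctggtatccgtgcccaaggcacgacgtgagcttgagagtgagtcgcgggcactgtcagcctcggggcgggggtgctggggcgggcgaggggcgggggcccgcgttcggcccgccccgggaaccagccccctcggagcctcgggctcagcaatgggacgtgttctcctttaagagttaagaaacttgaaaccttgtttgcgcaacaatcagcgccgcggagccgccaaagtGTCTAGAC
The match is a description of letters, not a shown binding site, and the Smad6 transcript differed by -0.030 here. Smad3 lies 195 kb from Smad6 on chromosome 9 (Smad3 at 63646766 to 63757994, Smad6 at 63953076 to 64022085), and the neighbours differed by 0.047 and -0.030.

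Genes that respond to SMAD1 and SMAD5 were read as the output of the BMP branch. Of 22 genes on the list 21 were measured, 13 with a positive and 8 with a negative difference, 0 passed over all units in limma, and the median was 0.021. Of these 21 genes 11 lay above the median level of all units. Id1, Id2 and Id3, inhibitors of MyoD-type factors and the classical BMP-induced genes, differed by 0.021, 0.046 and 0.0057. Id1 read 9.72, 9.70 and 9.69 with control siRNA and 9.78, 9.65 and 9.75 with H19 siRNA, and its 95% interval ran from -0.081 to 0.12. The groups overlapped for each of these 3 Id genes. Apart from Smad9 the list members with the smallest p were Grem1, a secreted BMP antagonist, at -0.13 (limma adjusted p = 0.280) and Hamp2, a hepcidin gene, at -0.27 (0.305). Grem1 passed once variance was allowed to follow intensity (limma adjusted p = 0.00437). Hamp2 lay below the median level of all units. It has a near-identical copy, Hamp, whose own probe set differed by 0.26, in the opposite direction. Whether the 2 probe sets tell the copies apart was not tested. At an unadjusted limma p under 0.05 there were 3 higher and 2 lower of the 21, Smad9 included, against 6.61% and 4.25% of all units.

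Genes that respond to SMAD2 and SMAD3 gave 14 positive and 8 negative differences among 22 measured, with 0 past the threshold in limma and a median of 0.014. The smallest p was that of Tgfbi, a TGF-beta-induced matrix protein that is also among the reported miR-675 targets. Tgfbi read 7.94, 7.90 and 7.93 with control siRNA and 7.67, 7.73 and 7.73 with H19 siRNA, with no overlap. Its difference was -0.21 (SE 0.035, limma adjusted p = 0.0965). Tgfbi passed when only units above the 30th percentile or above the median level were tested (limma adjusted p = 0.0445 and 0.0143). Cdkn2b, a cyclin-dependent kinase inhibitor, differed by 0.17 (limma adjusted p = 0.219) and Ltbp2, a latent TGF-beta binding protein, by -0.14 (0.301). Unadjusted, 2 of the 22 were higher and 4 lower at a limma p under 0.05, against 6.61% and 4.25% of all units.

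Upstream of the SMADs, 0 of 15 measured ligands, 0 of 15 antagonists and 0 of 18 receptors and co-receptors passed in limma. The medians were -0.0018, -0.027 and -0.0045. Bmp4, a BMP ligand, read 11.91, 11.89 and 11.89 with control siRNA and 11.78, 11.73 and 11.80 with H19 siRNA, and its groups did not overlap. The difference of Bmp4 was -0.13 (limma adjusted p = 0.265), that of Bmp5 -0.22 (0.219) and that of Bmp6 0.25 (0.129). Bmp5 lay below the 30th percentile of all units, and 2 of the 15 ligands lay above the median level. Among antagonists Fstl3, which binds activin and myostatin, differed by 0.23 (limma adjusted p = 0.192) and Chrd, chordin, by 0.15 (0.428). Among receptors Tgfbr3, betaglycan, differed by -0.20 (limma adjusted p = 0.177). The BMP co-receptors Rgmb and Hjv differed by -0.13 (0.248) and 0.22 (0.259), in opposite directions. With variance following intensity, Bmp4 (limma adjusted p = 0.0126), Grem1 (0.00437) and Tgfbr3 (0.0274) passed as lower and Fstl3 (0.0171) and Hjv (0.0433) as higher. With the filter at the median, Bmp6 (limma adjusted p = 0.0268) passed as higher and Tgfbr3 (0.0399) as lower. Unadjusted limma p-values under 0.05 fell on 1 ligand higher and 2 lower, 2 antagonists higher and 1 lower, and 2 receptors higher and 2 lower. Of all units 6.61% were higher and 4.25% lower at this limma p.

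Genes for proteins that bind, degrade or dephosphorylate SMADs also gave 0 calls in the fit of all units. Of 18 measured partners and corepressors 0 passed in limma, 9 were positive and 9 negative, and the median was 0.0026. Foxh1, a DNA-binding partner of SMAD2 and SMAD3, came closest at 0.32 (limma adjusted p = 0.0593), from readings of 5.39, 5.44 and 5.53 to 5.78, 5.77 and 5.77, below the 30th percentile of all units. Zfyve16 (endofin), an endosomal adaptor, differed by -0.18 (limma adjusted p = 0.214) and Skil, a SMAD corepressor, by -0.092 (0.399). Foxh1 passed as higher with array weights (limma adjusted p = 0.0433), and with variance following intensity Foxh1 (0.0321) passed as higher and Zfyve16 (0.0468) as lower. Unadjusted, 2 of these 18 were higher and 2 lower at a limma p under 0.05, against 6.61% and 4.25% of all units. The 18 ubiquitin ligases, deubiquitinases and phosphatases had the narrowest range of the lists, from -0.049 for Usp15 to 0.097 for Ppp1r15a, a regulatory subunit of protein phosphatase. Of these 0 passed in limma, and 0 had an unadjusted limma p under 0.05 against 10.9% of all units, with a median of 0.0057. Ctdsp1, a small C-terminal phosphatase, differed by 0.036 (limma adjusted p = 0.781).

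**Figure D3:**
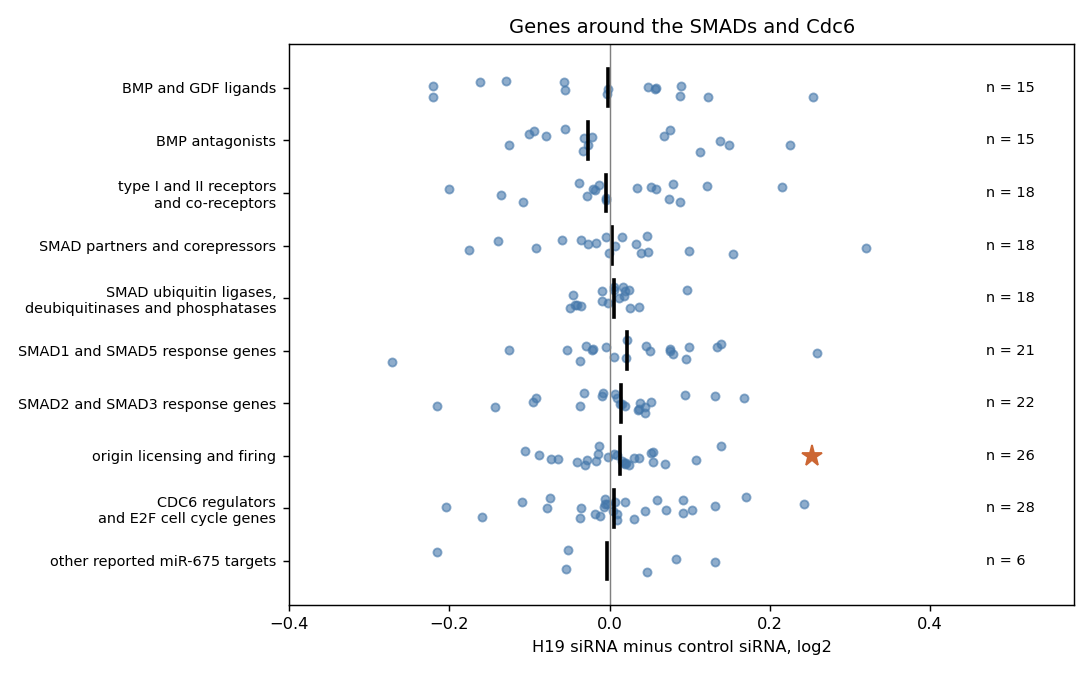
Difference in log2 expression, H19 siRNA minus control siRNA, for each measured gene (blue points) of 10 lists around the SMADs and Cdc6, with the list's median as a black bar and the number of measured genes at the right. Points spread on both sides of 0 in every list, the medians lie between -0.027 and 0.021, and Cdc6 (orange star, not counted in its row) lies beyond all 26 licensing and firing genes.

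Cdc6, the reported target outside the SMAD family, read higher on average with H19 siRNA. Its readings were 6.59, 6.91 and 6.69 with control siRNA and 7.09, 6.98 and 6.87 with H19 siRNA. The groups overlapped by 1 pair, H19 siRNA replicate 3 lying below control siRNA replicate 2. The difference was 0.25 (SE 0.093), or 1.19-fold with a 95% interval from 1.02 to 1.39. The unadjusted limma p was 0.0305 and the adjusted p 0.402, which ranked 1636 of 21559 units by p, and the exact permutation test gave 0.2 (two-sided). The SDs of 0.17 (control) and 0.11 (H19 siRNA, n = 3 each) were the widest of the 9 genes in their groups. Without control siRNA replicate 2 the difference was 0.34 (limma adjusted p = 0.416), and without control siRNA replicate 1 it was 0.18 (0.662). Its mean level lay below the median of all units, as did that of Smad9, and both lay above the 30th percentile.

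The Cdc6 promoter is shown because it holds an E2F motif, and E2F factors are known to drive Cdc6 at the entry into S phase. TTTCCCGC was present in 1.07% of the 32851 promoters and among the members only in Cdc6, and TTTGGCGC was in 0.514% and in no member. The window is chr11:98907901-98908150 on the plus strand, the 250 bases before the tabulated start. It lies within the RefSeq gene span, which begins at 98907709. Capitals mark the motif, which lies on the minus strand and so appears as its reverse complement, beginning 138 bases before the start.
Cdc6 promoter: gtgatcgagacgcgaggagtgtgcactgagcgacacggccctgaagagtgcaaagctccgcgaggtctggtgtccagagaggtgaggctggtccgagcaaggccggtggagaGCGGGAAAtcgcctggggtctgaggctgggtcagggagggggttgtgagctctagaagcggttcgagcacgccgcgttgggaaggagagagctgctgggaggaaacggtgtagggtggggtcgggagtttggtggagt
A match of letters does not show that a factor binds there.

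Genes of the machinery that CDC6 works with lay on both sides of 0. Of 26 measured genes of origin licensing and firing 0 passed in limma, 15 were positive and 11 negative, and the median was 0.013 beside 0.014 for all units. Cdc45, a helicase cofactor, read 8.41, 8.39 and 8.43 with control siRNA and 8.53, 8.53 and 8.50 with H19 siRNA, a difference of 0.11 (limma adjusted p = 0.310) with no overlap. Mcm3, a subunit of the helicase that CDC6 loads, differed the other way, by -0.11 (limma adjusted p = 0.316), also with no overlap. Recql4, a helicase of replication initiation, differed by 0.14 (limma adjusted p = 0.367). Cdt1, which loads the helicase together with CDC6, differed by 0.024 and its inhibitor Gmnn by -0.0017, both named after their values were seen. Unadjusted, 2 of the 26 were higher and 1 lower at a limma p under 0.05, against 6.61% and 4.25% of all units.

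Cell cycle genes around CDC6 and E2F were mixed. Of 28 measured genes 0 passed in limma, 15 were positive and 13 negative, and the median was 0.0055. E2f2, an activating E2F factor, read 9.53, 9.58 and 9.56 with control siRNA and 9.86, 9.72 and 9.81 with H19 siRNA. Its difference was 0.24 (limma adjusted p = 0.129) with no overlap. Rb1, the retinoblastoma protein that restrains E2F, differed by 0.13 (limma adjusted p = 0.249), and E2f5, a repressive E2F factor, by -0.16 (0.369). E2f2 and Rb1 passed as higher with variance following intensity (limma adjusted p = 0.00817 and 0.0179), and E2f2 with the filter at the median (0.0265). Unadjusted limma p-values under 0.05 fell on 6 higher and 2 lower of the 28, against 6.61% higher and 4.25% lower of all units.

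Other genes reported as miR-675 targets in other tissues went both ways. Of 6 measured genes 3 were positive and 3 negative, 0 passed in limma, and the median was -0.0027. Rb1 (0.13) and Runx1, a transcription factor (0.083, limma adjusted p = 0.458), read higher on every H19 siRNA array than on every control array. Tgfbi (-0.21) read lower on every one. Groups thus did not overlap for 2 higher and 1 lower of the 6, against 17.6% of all units (10.5% higher). All 6 genes lay above the median level of all units. As given above, Tgfbi passed under both filters and Rb1 with variance following intensity. Cadm1, Igf1r and Mitf differed by -0.052, -0.054 and 0.047, with overlapping groups. Unadjusted, 2 of the 6 were higher and 1 lower at a limma p under 0.05, against 6.61% and 4.25% of all units.

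Across the 10 lists, 176 genes other than the 9 were measured and 0 passed in limma with all units and the default variance model. That count depended on the setting, and 11 of these genes passed under at least 1 of 4 alternatives. With variance following intensity 9 of 176 passed, 5 higher and 4 lower, against 2.02% of all units. With the filter at the median 4 of the 136 tested passed, 2 higher and 2 lower, against 2.47% of the units tested. The filter at the 30th percentile called 1 of 162 against 0.736%, and array weights called 1 of 176 against 0.325%. Under the other 11 alternatives 0 of these genes passed. At an unadjusted limma p under 0.05 there were 34 of them, 20 higher and 14 lower, or 19.3%, against 10.9% of all units. Groups did not overlap for 47, or 26.7%, against 17.6% of all units. Of the 176 genes 136 lay above the median level of all units. In the fit of the 10779 units above that level, 1894 had an unadjusted limma p under 0.05. The shares of all units, here and beside the single lists, are therefore not matched for level. Whether the shares of the lists differ from those of all units was not tested. The median difference of the 176 genes was 0.0084.

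Genes with readings nearest to those of Cdc6, Smad1 and Smad5 were ranked by the root mean square difference over the 6 arrays after centring each gene on its mean. Only genes that varied at least as much as the member were ranked. For Cdc6 the nearest of 404 genes were Alpk3, a muscle alpha-kinase (0.055), Figla (0.079) and Frmpd1 (0.080). Alpk3 read 6.05, 6.41 and 6.30 with control siRNA and 6.66, 6.46 and 6.45 with H19 siRNA, low on control replicate 1 and high on H19 siRNA replicate 1 as Cdc6 was. For Smad1 the nearest of 14143 genes were 2010106E10Rik (0.0086), Nat1 (0.011) and Usp10, a deubiquitinase (0.011). For Smad5 the nearest of 17776 genes were D130007C19Rik (0.0057), Zcchc14 (0.0076) and Tex10 (0.0082). Near matches are easy to find over 6 arrays among so many genes.

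Markers of the labelled cell type were present. All 12 myoblast and myotube markers lay above the median level of all units, and 0 of 6 endothelial and 0 of 4 measured osteoblast markers did. Of macrophage and leukocyte markers 2 of 7 did, of adipocyte markers 2 of 6, and of fibroblast markers 5 of 8. On this scale no marker reads 0. In limma 1 of the 12 muscle markers passed as higher with H19 siRNA, and 2 of the 8 fibroblast markers as lower. Of all units 0.199% passed in either direction. At an unadjusted limma p under 0.05, 7 muscle markers were higher and 0 lower. Of the fibroblast markers 4 were lower and 0 higher, against 6.61% higher and 4.25% lower of all units. Muscle markers called, all higher, were 7 of 12 with variance following intensity, against 2.02% of all units. With the filter at the median they were 5, against 2.47% of the units tested. With that at the 30th percentile they were 4, against 0.736%. There were 0 after median centring or with any 1 array left out. The median level of the muscle markers ran from 11.36 to 11.38 with control siRNA and from 11.58 to 11.67 with H19 siRNA. There 11 of 12 differences were positive, and Tnnt2, a troponin, rose by 0.26 (limma adjusted p = 0.0425). The Tnnt2 call was kept under 6 of 15 alternative settings and was lost after median centring of the arrays (limma adjusted p = 0.0976). Cdh15, M-cadherin, differed by 0.28 (0.0519) and Myog, myogenin, by 0.22 (0.0779). The median level of the fibroblast markers ran from 9.83 to 9.89 with control siRNA and from 9.67 to 9.82 with H19 siRNA. There 5 of 8 differences were negative, and Dcn (-0.50) and Lum (-0.95), matrix proteoglycans, fell with limma adjusted p-values of 0.00727 and 0.0227. The Dcn call was kept under 9 of 15 settings and the Lum call under 7 of the 14 in which Lum was tested, both after median centring too. Pdgfra, a growth factor receptor of mesenchymal cells, differed by -0.25 (limma adjusted p = 0.268). In bulk RNA, fewer cells of a type and less RNA per cell cannot be told apart, and the part of these markers in the values of the SMADs and Cdc6 was not tested. The osteoblast markers, the fate that BMPs promote in this line, differed by a median of 0.035, with Dmp1 at -0.21 (limma adjusted p = 0.324), Ibsp at 0.080 and Alpl at 0.051. The medians were -0.022 for macrophage and leukocyte markers (Cd68 at -0.19, Csf1r at 0.096, Cd14 at -0.13), -0.046 for endothelial markers (Cdh5 at 0.099, Pecam1 at -0.091, Tek at -0.055) and 0.061 for adipocyte markers (Fabp4 at -0.12, Pparg at 0.077, Plin1 at 0.13). In these 4 lists 0 members passed in limma. At an unadjusted limma p under 0.05 there were 1 of 7 macrophage and 1 of 4 osteoblast markers, both lower, against 10.9% of all units. The endothelial and adipocyte lists had 0.

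**Figure D4:**
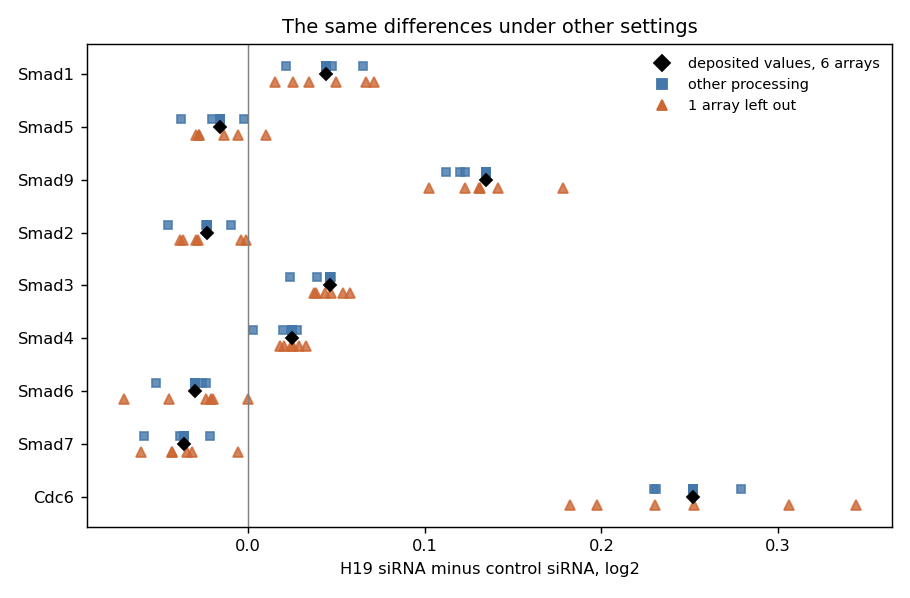
Difference in log2 expression, H19 siRNA minus control siRNA, of each of the 9 genes with the deposited values and 6 arrays (black), under other processing (blue squares) and with 1 array left out (orange triangles). Cdc6 stays between 0.18 and 0.34 and Smad9 between 0.10 and 0.18, and of the other 7 genes Smad5 and Smad6 each cross 0 once, without H19 siRNA replicate 2 and without control siRNA replicate 2.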

How the data were processed

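Per the submitters' processing notes, the authors made the deposited log2 values with Affymetrix Expression Console and its RMA method, version not given in the sources used here. RMA subtracts background, equalises the arrays by quantiles and combines the probes of a probe set, which shrinks differences of dim probe sets. There were 35556 rows with array medians between 6.73 and 6.78, and 0 pairs of arrays were identical. Detection calls were not used here. The number of arrays (3 per group) limits the precision.

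GEO's platform annotation gave 21789 rows 1 gene symbol and 1621 several, and 12146 rows were not listed and not fitted. A gene with several probe sets was represented by the one with the highest mean. The siRNA groups were compared with limma 3.58.1 (lmFit, then eBayes, in R 4.3.3) on all 21559 units, two-sided, with no covariate and no filter. All 9 members entered this fit. Intervals are 95% intervals from the moderated statistic, and group values are mean ± SD. The fit was tested on simulated data.

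The members, the gene lists and the tests were chosen with earlier results of these data known. Lists are described by counts and medians. The genes named are the 9 members, Id1 to Id3, up to 3 genes with the smallest p and any called gene of each list, and the 3 nearest genes of Cdc6, Smad1 and Smad5. Others are named as chosen after their values were seen, and these are Hamp, Cdt1, Gmnn, Cadm1, Igf1r and Mitf. The promoter windows printed were chosen after the motif search. Alternatives were other variance models, array weights, scalings, filters, probe set rules, the replicate number as a block and leaving out each array.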

Additional observations from a re-analysis of the deposited data

How the results depend on the processing

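None of the 9 genes passed an adjusted p of 0.05 in limma under any of the 15 alternatives (133 values, since Cdc6 and Smad9 lay below the filter at the median). The smallest adjusted p was 0.236 for Cdc6, with an intensity trend and robust variance, and 0.261 for Smad9, with the filter at the 30th percentile. The unadjusted p was under 0.05 in 9 of 14 alternatives for Cdc6 and in 8 of 14 for Smad9. Leaving out 1 array turned the direction of Smad5 (between -0.029 and 0.010) and of Smad6 (between -0.070 and 0.00041), and the cause was not tested. Of all units, 43 were called in the reported fit, 435 once variance followed intensity, 70 with array weights and 11 over all rows. Keeping units above the 30th percentile gave 111, and above the median 266. The count ran from 1 to 21 when any of the 6 arrays was left out. Same-numbered arrays did not deviate together (correlations of 0.0012, -0.067 and -0.11). The labels do not say that the numbers pair arrays, and these correlations cannot exclude it. With the replicate block 3 units were called, Cdc6 was at an adjusted p of 0.567 and Smad9 at 0.572. Of the 176 genes of the pathway lists, 0 passed in the reported fit, 9 once variance followed intensity, 4 with the filter at the median, and 1 each with the filter at the 30th percentile and with array weights. Of 238 list medians under alternatives 214 moved by less than the spread between arrays and 24 by more.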
